A study of Mus musculus with 6 samples.

Results

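The genes described here encode enzymes and a chaperone that modify, trim and crosslink fibrillar collagen. They are the prolyl 4-hydroxylase subunits *P4ha1* and *P4ha2*, the lysyl hydroxylases *Plod1*, *Plod2* and *Plod3*, the collagen chaperone *Serpinh1*, the procollagen C-proteinase *Bmp1* and the lysyl oxidases *Lox*, *Loxl1* and *Loxl2*. These 10 genes were taken by name, for their role in collagen processing, from the 41388 genes counted in each sample. RNA-seq compared primary chondrocytes from femoral head cartilage of male mice aged 21 days, kept in culture for 2 days without treatment. In 3 samples the mice were *Postn*-/-, homozygous for the *Postn* tm1Jmol allele, and in 3 samples they were *wt*. Both genotypes were on the mixed B6/129 (B6129SF2/J) background and were bred as littermates, and the labels do not tie replicate numbers to litters. The comparison addresses how chondrocytes that lack periostin differ from *wt* chondrocytes at baseline.

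Collagen chains are modified in the endoplasmic reticulum, where prolyl 4-hydroxylases make the hydroxyproline that keeps the helix stable at body temperature, lysyl hydroxylases make the hydroxylysine used for sugars and mature crosslinks, and the product of *Serpinh1*, HSP47, holds the folded helix until it leaves. Outside the cell BMP1 removes the C-terminal propeptide of fibrillar procollagens and also cuts the propeptide of lysyl oxidase, and lysyl oxidases then oxidize lysine and hydroxylysine so that neighbouring molecules are crosslinked. Periostin is a matrix protein of collagen-rich tissues that is known to promote the BMP1-dependent activation of lysyl oxidase, and cartilage rests on a network of type II, IX and XI collagens that needs all of these steps. RNA counts measure transcripts and neither enzyme activity nor crosslinks.

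The total counts were 25775101, 24310717 and 20587640 in *Postn*-/- samples 1, 2 and 3 and 26572260, 22441992 and 20646419 in *wt* samples 1, 2 and 3. At this depth 3 counts are worth 0.113 to 0.146 CPM (counts scaled to the sample total), a floor that covers counting error only. *Postn* itself was at 4.66, 4.27 and 5.67 TMM-normalized CPM in *Postn*-/- samples 1, 2 and 3 and at 10.1, 10.3 and 6.90 in *wt* samples 1, 2 and 3, where TMM corrects each sample for depth and composition. The *Postn*-/- samples were all lower than the *wt* samples, and the log2 fold change, *Postn*-/- over *wt*, was −0.91 with a standard error of 0.22 (unadjusted p = 0.00362; adjusted p = 0.717, edgeR quasi-likelihood test, Benjamini-Hochberg method across all tested genes). The targeted allele carries a cassette in place of internal exons, and reads of any remaining exons would count for the gene. Where in the gene the reads lie was not analysed here. *Postn* was a weakly expressed gene in the *wt* cells too, at 1.16 ± 0.245 RPKM (CPM per kilobase of exon; mean ± SD, n = 3). None of the 10 genes lies on chromosome 3, which carries *Postn*.

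The cells carried the markers of chondrocytes. All 10 chondrocyte markers were tested in the comparison, and their summed level was 41906, 31179 and 40959 normalized CPM in *Postn*-/- samples 1, 2 and 3 and 25744, 36714 and 32165 in *wt* samples 1, 2 and 3. *Cnmd* had the highest mean level per length over the 6 samples, with *Comp* or *Col2a1* above it in some of them. Of 5 erythroid markers none reached the level for testing, and 4 of them had at most 3 counts in every sample. The endothelial sum was between 4.19 and 9.48 CPM and the muscle sum between 6.19 and 19.5. Fibroblast and perichondrium markers were present, with *Col1a1* the most abundant per length and a sum of 2025, 2939 and 1212 CPM in *Postn*-/- samples 1, 2 and 3 and of 1734, 4263 and 1529 in *wt* samples 1, 2 and 3, while *Thy1* and *Twist2* were below the level for testing. The osteoblast sum, led by *Spp1*, was 2260, 9811 and 3157 CPM in the *Postn*-/- samples and 2673, 6385 and 2220 in the *wt* samples, so samples 2 of both genotypes were the highest for both of these sums. Macrophage and osteoclast markers summed to between 332 and 506 CPM, most abundantly *Ctsk*, with *Adgre1* and *Tyrobp* below the level for testing. The libraries are of bulk RNA, in which fewer cells of a type and less RNA per cell cannot be told apart.

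All 10 collagen-modifying genes were expressed, and their levels spanned 3 orders of magnitude. Per length, *Serpinh1* was by far the most abundant, at 5744 ± 752 RPKM (mean ± SD of all 6 samples), and was the 3rd highest of the 14533 tested genes. *P4ha1* followed at 353 ± 43.1 RPKM, then *Plod2* at 185 ± 37.3, *P4ha2* at 160 ± 29.2, *Plod1* at 104 ± 14.8 and *Plod3* at 86.3 ± 4.07. The genes that act outside the cell were lower, with *Lox* at 32.8 ± 19.5 RPKM, *Loxl2* at 20.5 ± 6.54, *Bmp1* at 7.46 ± 2.50 and *Loxl1* at 3.48 ± 1.37. In this order the 6 samples of neighbouring genes did not overlap between *Serpinh1* and *P4ha1*, *P4ha1* and *Plod2*, *Plod3* and *Lox*, or *Loxl2* and *Bmp1*. They overlapped at the other 5 steps. Even so *P4ha2* was above *Plod1* and *Bmp1* above *Loxl1* in each of the 6 samples, whereas *Plod2* was above *P4ha2*, and *Lox* above *Loxl2*, in 4 of 6 and *Plod1* above *Plod3* in 5 of 6. *Loxl1* stood near the middle of all tested genes, at the 49.1st percentile of level per length, and the lowest of the 6 genes of the endoplasmic reticulum, *Plod3*, ranked 730th of 14533.

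**Figure D1:**
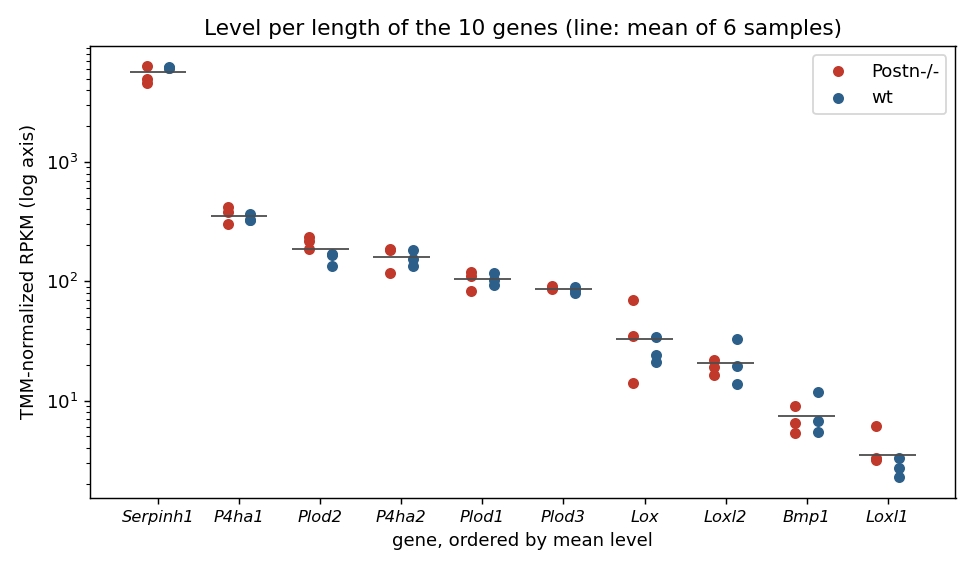
TMM-normalized RPKM (log axis) of the 10 genes in each of 6 samples, red for *Postn*-/- and blue for *wt*, with a line at the mean of the 6. *Serpinh1* lies 16.3-fold above *P4ha1*, the next gene, and the genes for secreted enzymes lie below those of the endoplasmic reticulum.

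Between genotypes, *Plod2* was the 1 gene of the 10 that reached an unadjusted p ≤ 0.05 (edgeR quasi-likelihood test), and it was higher in *Postn*-/-. Of all 14533 tested genes 6.3% had an unadjusted p of at most 0.05, 3.95% higher and 2.35% lower in *Postn*-/-, which is close to the 1 in 10 seen here. The split by direction, 574 higher and 342 lower, was 560 and 544 without *Postn*-/- sample 2 and 304 and 121 without *Postn*-/- sample 3. At an adjusted p of at most 0.05 there were 0 of the 10 genes and 2 of all tested genes (0.0138%), and by the DESeq2 Wald test 11 of all tested genes. The samples of the genotypes did not overlap for 1 of the 10 genes, again *Plod2*, against 13.6% of all tested genes. The median log2 fold change of the 10 was 0.05 against 0.0042 over all tested genes, and the median absolute value was 0.20 against 0.16. Positive values were found for 7 of the 10 and negative ones for 3, or 6 and 4 with DESeq2 size factors, under which *Plod1* changed sign at a value near 0.

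**Figure D2:**
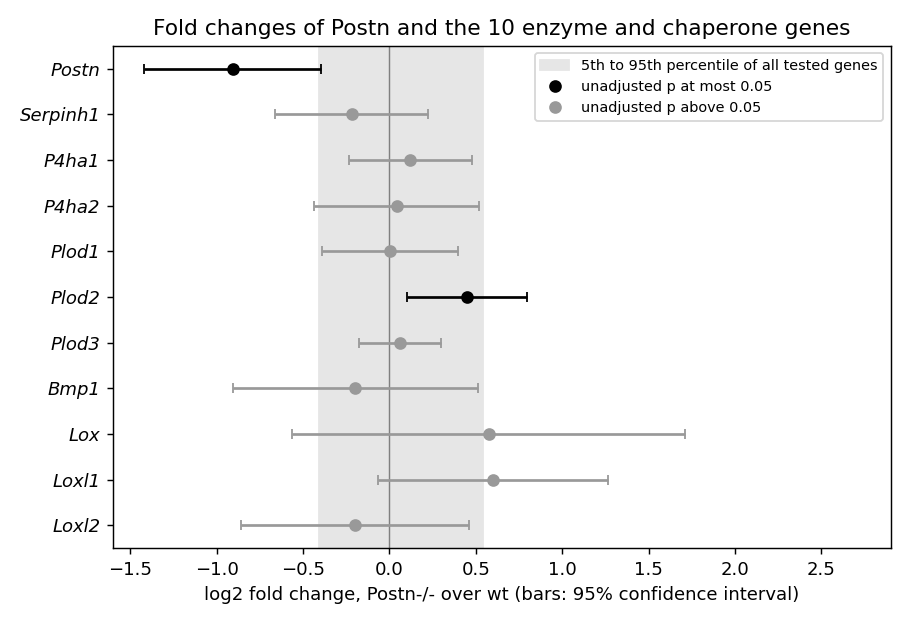
Log2 fold change, *Postn*-/- over *wt*, of *Postn* and the 10 genes, with 95% confidence intervals from edgeR's fit and the 5th to 95th percentile of all tested genes shaded (−0.41 to 0.54). Of the 10 genes, the interval of *Plod2* alone leaves out 0, and those of *Lox*, *Bmp1*, *Loxl1* and *Loxl2* are the widest.

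*Plod2* encodes lysyl hydroxylase 2, which hydroxylates lysines in the telopeptides of collagen and so directs crosslinks toward the hydroxylysine-derived kind. It was at 1265, 1003 and 1184 normalized CPM in *Postn*-/- samples 1, 2 and 3 and at 718, 909 and 901 in *wt* samples 1, 2 and 3. Each *Postn*-/- sample was above each *wt* sample, the nearest being *Postn*-/- sample 2 and *wt* sample 2, and *wt* sample 1 was the lowest of all. The log2 fold change was 0.45 with a standard error of 0.15, a 1.37-fold higher level with a 95% confidence interval of 1.07 to 1.74 (unadjusted p = 0.0175; Benjamini-Hochberg-adjusted p = 0.717, edgeR quasi-likelihood test). By p it ranked 284th of the tested genes. An exact permutation test of 3 samples against 3 cannot give a p below 0.1. The unadjusted call was lost without *wt* sample 1, at a log2 fold change of 0.35 (unadjusted p = 0.0508 from edgeR), and without *Postn*-/- sample 1, at 0.38 (unadjusted p = 0.0646 from edgeR). *wt* sample 1 also lay apart from the rest over all genes, at 47.7 on the first principal component, with the other 5 samples between −17.4 and −0.02.

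The other lysyl hydroxylases did not share this pattern. *Plod1*, which acts mainly on lysines within the helix, was at 813, 556 and 746 normalized CPM in *Postn*-/- samples 1, 2 and 3 and at 796, 690 and 624 in *wt* samples 1, 2 and 3. The genotypes overlapped fully, with *Postn*-/- samples 1 and 2 the highest and the lowest of the 6. *Plod3*, which also transfers sugars to hydroxylysine, had the steadiest level of the 10 genes, between 387 and 411 CPM in *Postn*-/- and between 360 and 404 in *wt*. Its log2 fold change of 0.06 had a 95% confidence interval of −0.18 to 0.30, and that of *Plod1*, 0.00, one of −0.39 to 0.40. As a share of the summed RPKM of the 3 lysyl hydroxylases, *Plod2* held 53.0%, 52.6% and 52.2% in *Postn*-/- samples 1, 2 and 3 and 40.3%, 46.8% and 48.6% in *wt* samples 1, 2 and 3. The *Postn*-/- shares lay within 1 percentage point of each other and above every *wt* share. This share repeats the difference in *Plod2* itself and does not depend on how samples are scaled to each other. Whether the fold change of *Plod2* differs from those of *Plod1* and *Plod3* was not tested.

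**Figure D3:**
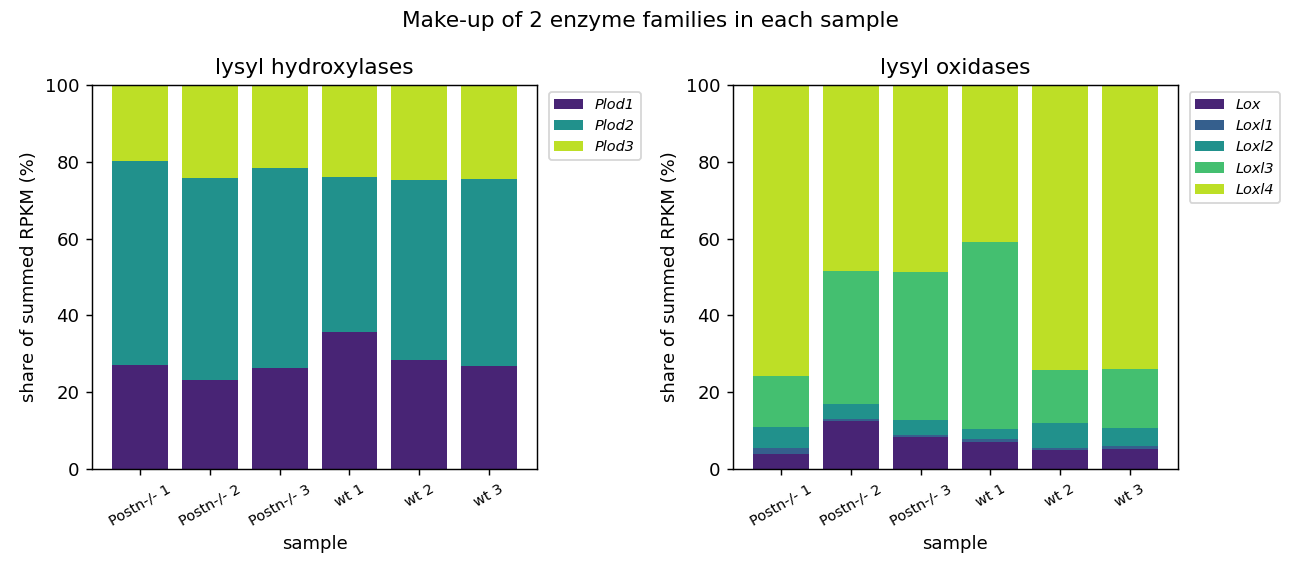
Share of the summed RPKM of the lysyl hydroxylases (left) and of the lysyl oxidases (right) held by each gene, in percent, in each of 6 samples. *Plod2* holds 52.2% to 53.0% in *Postn*-/- and 40.3% to 48.6% in *wt*, while the make-up of the lysyl oxidases, between *Loxl3* and *Loxl4* above all, differs among samples of the same genotype.

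*P4ha1* and *P4ha2* encode alternative catalytic subunits of prolyl 4-hydroxylase, which pair with the protein disulfide isomerase P4HB. *P4ha1* was at 1582, 1242 and 1716 normalized CPM in *Postn*-/- samples 1, 2 and 3 and at 1336, 1494 and 1343 in *wt* samples 1, 2 and 3. *P4ha2* was at 1157, 736 and 1149 CPM in *Postn*-/- samples 1, 2 and 3 and at 838, 1149 and 967 in *wt* samples 1, 2 and 3. For both genes *Postn*-/- sample 2 was the lowest of the 6 while *Postn*-/- samples 1 and 3 were at or near the top, so the genotypes overlapped. The log2 fold change was 0.12 for *P4ha1* (95% confidence interval −0.24 to 0.48) and 0.04 for *P4ha2* (−0.43 to 0.52), with Benjamini-Hochberg-adjusted p of 0.846 and 0.966 in the edgeR quasi-likelihood test. The sign for *P4ha2* turned in 4 of the alternatives. *P4ha1* held between 66.3% and 71.5% of the summed RPKM of the 3 alpha subunits in every sample, and *P4ha3* at most 0.497%.

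The 2 subunit genes had similar profiles over the samples, a relation that did not pass adjustment. Over the 6 samples the log2 levels of *P4ha1* and *P4ha2* had a Pearson's r of 0.897 (exact permutation p = 0.0153, 0.25 after adjustment over 45 pairs) and a Spearman's rho of 0.943 (exact permutation p = 0.0167, adjusted 0.375). With each genotype's mean subtracted r was 0.939, and without the samples farthest from the median of *P4ha1*, *Postn*-/- 2 and 3, it was 0.902 (exact permutation p = 0.125). Both are known targets of the hypoxia-inducible factors (HIF), as are *Plod2* and *Lox*, and their promoters are shown because of this similarity, for a pair picked after its values were seen. The sequences are RefSeq promoters (GRCm38.p6), of which those of 5 of the 10 genes were used here, and run from 250 bases before to 50 bases after the start that RefSeq gives. For *P4ha1* this is the start of the counted gene, whereas for *P4ha2* it lies downstream of it, so that the window falls within the counted gene. Capitals mark the core of the hypoxia response element, ACGTG or GCGTG on either strand. For *P4ha1* the window is chr10:59323046-59323345 and for *P4ha2* chr11:54100674-54100973, both on the plus strand.
P4ha1: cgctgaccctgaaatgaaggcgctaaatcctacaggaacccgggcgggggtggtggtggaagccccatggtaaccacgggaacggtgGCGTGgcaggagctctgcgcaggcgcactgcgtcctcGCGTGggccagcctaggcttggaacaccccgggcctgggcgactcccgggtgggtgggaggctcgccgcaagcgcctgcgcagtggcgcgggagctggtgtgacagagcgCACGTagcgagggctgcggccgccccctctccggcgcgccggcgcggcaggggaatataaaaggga
P4ha2: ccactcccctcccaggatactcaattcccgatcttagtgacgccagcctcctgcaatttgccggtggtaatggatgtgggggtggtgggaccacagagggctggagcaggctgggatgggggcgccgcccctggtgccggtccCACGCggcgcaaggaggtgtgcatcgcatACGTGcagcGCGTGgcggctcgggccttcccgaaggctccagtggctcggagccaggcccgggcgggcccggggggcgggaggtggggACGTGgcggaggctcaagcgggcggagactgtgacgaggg
The core occurred 3 times in the window of *P4ha1* and 4 times in that of *P4ha2*, and both windows had a G and C content of 70.3%. At least 1 core was also found in the windows of *Plod1*, *Plod3* and *Serpinh1*, so in all 5 windows searched, and in 43.8% of all 32851 promoters of this length. Its presence is thus common and describes the sequence only. No window was searched for *Bmp1*, *Lox*, *Loxl1*, *Loxl2* or *Plod2*.

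The chaperone gene *Serpinh1* was at 15422, 11145 and 12219 normalized CPM in *Postn*-/- samples 1, 2 and 3 and at 14936, 15360 and 14841 in *wt* samples 1, 2 and 3. The *wt* samples lay close together (coefficient of variation 1.84%), whereas *Postn*-/- samples 2 and 3 were below all of them and *Postn*-/- sample 1 was above all of them. The log2 fold change of −0.22 had a standard error of 0.19 (Benjamini-Hochberg-adjusted p = 0.781, edgeR quasi-likelihood test). The value was −0.36 without *Postn*-/- sample 1 and −0.12 without *Postn*-/- sample 2. The 95% confidence interval allowed for a level from 0.633-fold to 1.17-fold that of *wt*.

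**Figure D4:**
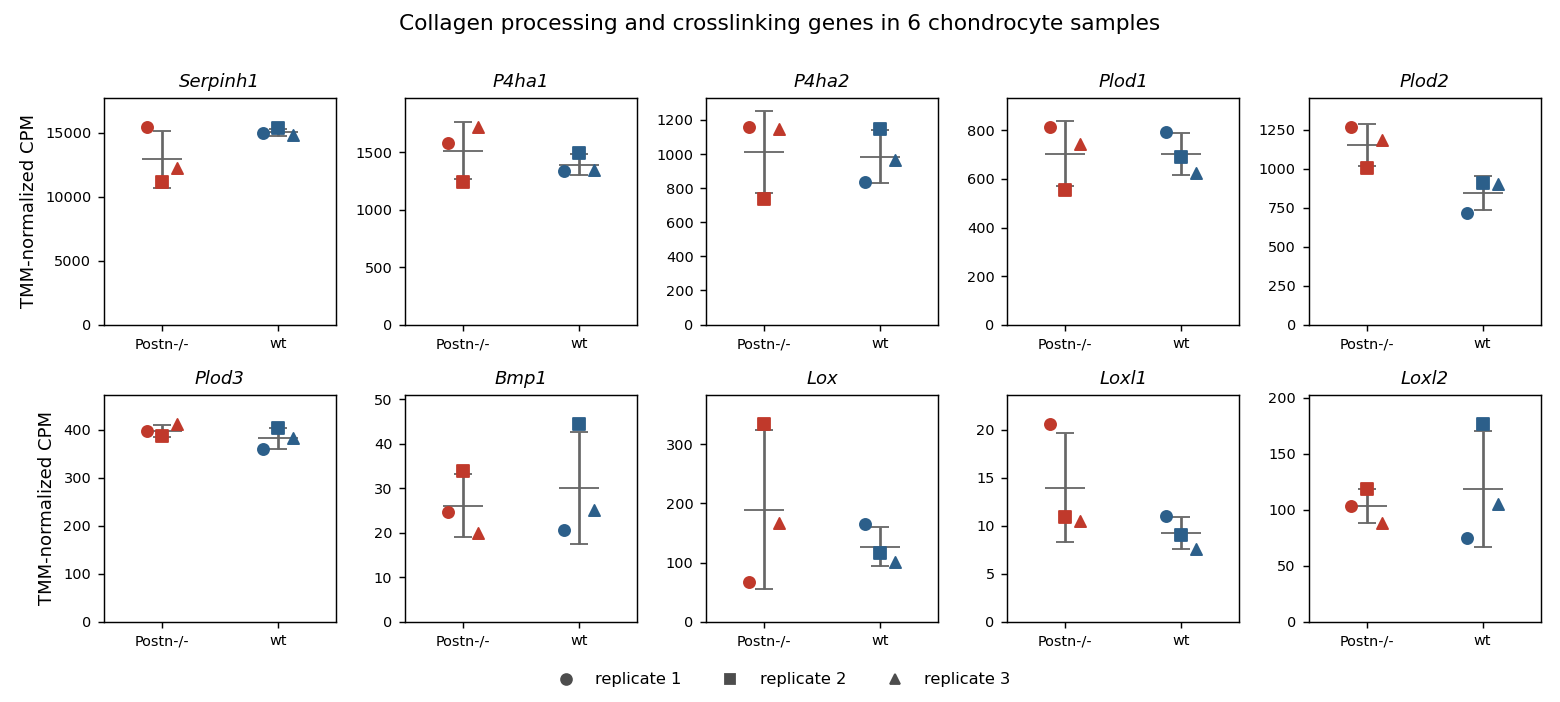
TMM-normalized CPM of each gene in *Postn*-/- (red) and *wt* (blue) samples, with the symbol giving the replicate number and bars the mean ± SD (n = 3 each). *Plod2* is the 1 gene whose genotypes do not overlap, and *Lox* has the widest spread relative to its mean, from 67.3 to 333 CPM within *Postn*-/-.

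*Bmp1* encodes the proteinase that links procollagen trimming to lysyl oxidase activation. It was at 24.6, 33.8 and 19.9 normalized CPM in *Postn*-/- samples 1, 2 and 3 and at 20.5, 44.3 and 25.1 in *wt* samples 1, 2 and 3. The highest levels were in *wt* sample 2 and then *Postn*-/- sample 2, and the genotypes overlapped. The log2 fold change was −0.20 with a standard error of 0.31 (Benjamini-Hochberg-adjusted p = 0.877, edgeR quasi-likelihood test), and it became 0.20 without *wt* sample 2. *Bmp1* held between 91.6% and 98.5% of the summed RPKM of the tolloid proteinases in each sample, with *Tll1* and *Tll2* making up the rest.

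*Lox*, the lysyl oxidase whose propeptide BMP1 removes, was at 67.3, 333 and 166 normalized CPM in *Postn*-/- samples 1, 2 and 3 and at 164, 116 and 100.2 in *wt* samples 1, 2 and 3. *Postn*-/- samples held both the lowest and the highest level of the 6, with a coefficient of variation of 71.1% against 26.3% in *wt*. Its log2 fold change of 0.57 therefore had a standard error of 0.49 (Benjamini-Hochberg-adjusted p = 0.777, edgeR quasi-likelihood test). Without *Postn*-/- sample 2 the value was −0.12, and without *Postn*-/- sample 1 it was 0.98 with an unadjusted p of 0.0192 from edgeR. Leaving out either library thus gave a different sign or call.

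*Loxl1*, an oxidase known for its part in elastic fibres, was at 20.6, 10.9 and 10.5 normalized CPM in *Postn*-/- samples 1, 2 and 3 and at 11.0, 9.09 and 7.62 in *wt* samples 1, 2 and 3. *Postn*-/- sample 1 was high, and the other *Postn*-/- samples were just below *wt* sample 1 and above *wt* samples 2 and 3. The log2 fold change was 0.60 with a standard error of 0.29 (unadjusted p = 0.0723; Benjamini-Hochberg-adjusted p = 0.717, edgeR quasi-likelihood test). It was positive in all 14 alternatives, with an unadjusted p of at most 0.05 in 4 of them, and its size depended on *Postn*-/- sample 1. Without that sample it was 0.21, with an unadjusted p of 0.351 from edgeR.

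*Loxl2*, which oxidizes collagen IV and other matrix proteins, was at 103, 119 and 87.9 normalized CPM in *Postn*-/- samples 1, 2 and 3 and at 74.9, 176 and 105 in *wt* samples 1, 2 and 3. The lowest and the highest of the 6 were both *wt*, and the log2 fold change was −0.20 with a standard error of 0.29 (Benjamini-Hochberg-adjusted p = 0.865, edgeR quasi-likelihood test), turning to 0.20 without *wt* sample 2. The level of *Loxl2* is uncertain, since 45% of the 50-base words in its transcripts also occur in other genes, most of them in the unprocessed pseudogene *Gm21451* on the same chromosome. Reads from such stretches do not align uniquely, and *Gm21451* was counted with between 1 and 7 reads a sample. Among the other genes *Plod3* shared 9.81% of its words, mainly with the overlapping gene *Znhit1* on the opposite strand, *Plod2* shared 5.51% with the transcript *Gm38391*, and the remaining 7 genes each shared less than 1%. *Lox* also overlaps an antisense gene, *Plod2* overlaps *Gm38391*, and *Loxl2* overlaps *Gm27177* and *Gm37513*, all on the opposite strand. The library kit does not mark strand, so strand cannot assign reads where genes on opposite strands overlap. The study counted only reads that were unique and unambiguous, and how many were left out at these overlaps was not analysed here.

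The lysyl oxidase family was led by genes outside the 10. *Loxl4* was at 269 ± 62.3 RPKM and *Loxl3* at 129 ± 79.9 (mean ± SD of 6 samples), against 32.8 for *Lox*, and both were named after their values were seen. *Loxl3* was at 202, 817 and 681 normalized CPM in *Postn*-/- samples 1, 2 and 3 and at 994, 290 and 253 in *wt* samples 1, 2 and 3. It was high in *Postn*-/- samples 2 and 3 and *wt* sample 1 and low in the other 3, so the genotypes overlapped. The log2 fold change of 0.14 had a 95% confidence interval of −1.31 to 1.60, which holds large differences in either direction. *Loxl4* held 75.9%, 48.4% and 48.8% of the summed RPKM of the 5 lysyl oxidases in *Postn*-/- samples 1, 2 and 3 and 41.0%, 74.1% and 74.1% in *wt* samples 1, 2 and 3, and *Lox* between 3.87% and 12.4%.

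By Pearson's r *Bmp1* and *Loxl2* were the most alike of the 45 pairs among the 10 genes, while by Spearman's rho they tied with *P4ha1* and *P4ha2*. Over the 6 samples Pearson's r of the log2 levels of *Bmp1* and *Loxl2* was 0.958 (exact permutation p = 0.00417, 0.188 after adjustment over 45 pairs) and Spearman's rho 0.943 (exact permutation p = 0.0167, adjusted 0.375). Without *Postn*-/- sample 2 and *wt* sample 2, those farthest from the median of *Bmp1*, r was 0.857 (exact permutation p = 0.292). These samples were also the highest for *Col1a1*, at 1430 normalized CPM in *Postn*-/- sample 2 and 2059 in *wt* sample 2 against between 482 and 845 in the other 4, and for the fibroblast and osteoblast sums given above. These sums follow their most abundant genes, *Col1a1* itself, *Col1a2* and *Spp1*, and the other markers were mixed. *Ibsp* and *Sp7* were also highest in samples 2. By contrast *Col3a1* and *Pdgfra* were lowest in *wt* sample 2, and *Bglap* was highest in *Postn*-/- sample 3 and *wt* sample 1. The part of these cell types in the levels of *Bmp1* and *Loxl2* was not tested.

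*Lox* and *Serpinh1* were the least alike pair, with a Pearson's r of −0.845 (exact permutation p = 0.0167, 0.25 after adjustment over 45 pairs) and a Spearman's rho of −0.829 (exact permutation p = 0.0583, adjusted 0.716). *Postn*-/- sample 2 had the highest *Lox* and the lowest *Serpinh1*, and without *Postn*-/- samples 1 and 2, the farthest from the median of *Lox*, r was −0.576 (exact permutation p = 0.542). With each genotype's mean subtracted r was −0.936, with a permutation p of 0.025. This p comes from permuting all 6 samples across genotypes and is only approximate once means are subtracted. In all, 3 of the 45 pairs had an exact permutation p of at most 0.05 for Pearson's r, and none had an adjusted p of at most 0.05, the lowest being 0.188.

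**Figure D5:**
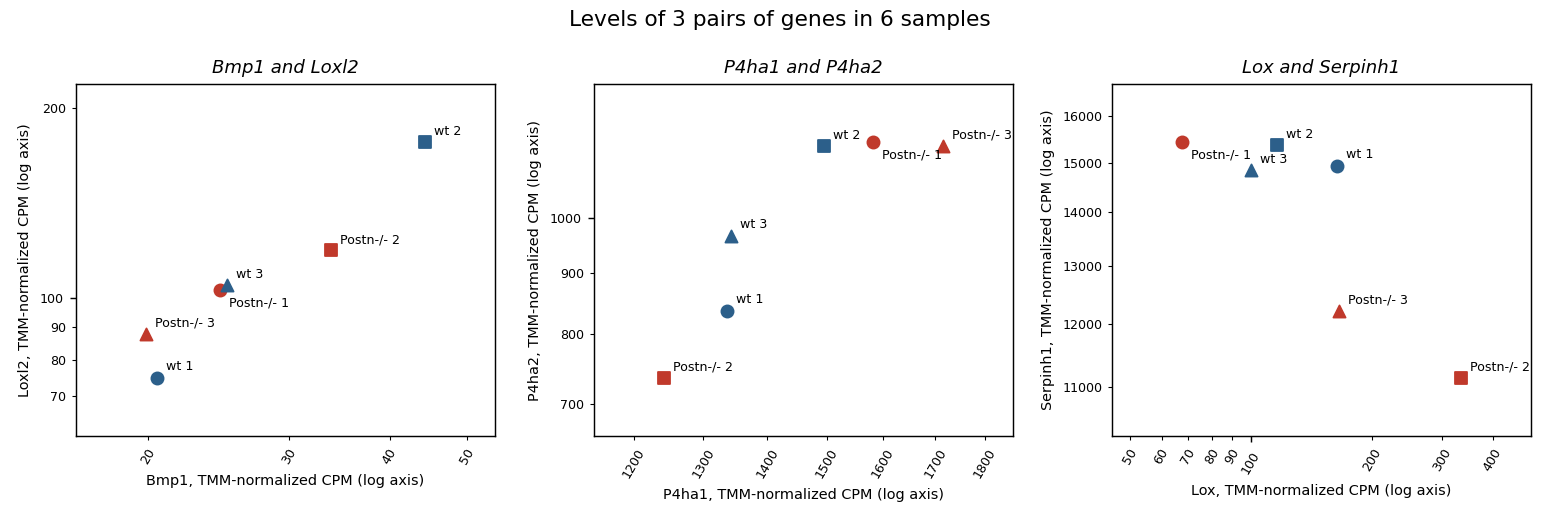
TMM-normalized CPM (log axes) of *Bmp1* and *Loxl2*, *P4ha1* and *P4ha2*, and *Lox* and *Serpinh1* in the 6 samples, red for *Postn*-/- and blue for *wt*, labelled by replicate. Samples 2 of both genotypes lead for *Bmp1* and *Loxl2*, and *Postn*-/- sample 2 lies at an end of the other 2 plots.

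The substrates of these enzymes are the fibrillar collagens. Of 14 fibrillar collagen and collagen IX genes 3 had an unadjusted p of at most 0.05, all higher in *Postn*-/-, against 6.3% of all tested genes (3.95% higher). The list's median log2 fold change was 0.26, with 10 values positive and 4 negative. *Col2a1*, the main collagen of cartilage, was at 15767, 13696 and 18081 normalized CPM in *Postn*-/- samples 1, 2 and 3 and at 8271, 11867 and 9567 in *wt* samples 1, 2 and 3. *Col9a3*, a chain of the collagen that coats type II fibrils, was at 1023, 803 and 1260 CPM in *Postn*-/- samples 1, 2 and 3 and at 293, 707 and 543 in *wt* samples 1, 2 and 3. For both genes every *Postn*-/- sample was above every *wt* sample, with a log2 fold change of 0.68 (standard error 0.21) and 1.00 (0.31). *Col11a2* was at 449, 391 and 459 CPM in *Postn*-/- samples 1, 2 and 3 and at 221, 405 and 280.4 in *wt* samples 1, 2 and 3, where *wt* sample 2 was above *Postn*-/- sample 2, with a log2 fold change of 0.52 (standard error 0.21). Its call was lost without *Postn*-/- sample 1 or 3 or *wt* sample 3, at values of 0.49, 0.47 and 0.47, and without *wt* sample 1, at 0.34. That of *Col2a1* was lost without *wt* sample 3, at 0.65. The Benjamini-Hochberg-adjusted p of the edgeR quasi-likelihood test was 0.717 for each of the 3 genes. The list held 1 such gene without *wt* sample 3, and 5 without *wt* sample 2 or by limma voomWithQualityWeights. Of all tested genes 878 of 14309, 1257 of 14427 and 1337 of 14533 were called in these fits. *Col11a1* was the next most abundant gene of the list after *Col2a1*, at 522 RPKM against 2145, and its log2 fold change was negative, at −0.14 (standard error 0.20).

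Among the 6 genes of prolyl 3-hydroxylation, which modifies single prolines of the helix, 1 had an unadjusted p of at most 0.05, against 6.3% of all tested genes. This was *P3h3*, an enzyme of the complex that works with lysyl hydroxylase 1, at 20.6, 18.2 and 25.0 normalized CPM in *Postn*-/- samples 1, 2 and 3 and at 18.1, 15.7 and 13.1 in *wt* samples 1, 2 and 3. *Postn*-/- sample 2 was only just above *wt* sample 1, and the log2 fold change was 0.44 with a standard error of 0.18 (Benjamini-Hochberg-adjusted p = 0.717, edgeR quasi-likelihood test). The call was lost without *Postn*-/- sample 1 or 3 and without *wt* sample 2 or 3, at log2 fold changes of 0.46, 0.31, 0.44 and 0.32, and with replicate number as a block, at 0.44. The most abundant genes of this list were *Ppib*, a prolyl isomerase, at 374 RPKM and *P3h4* at 29.3, and the list's median log2 fold change was 0.14.

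None of the 9 partners and relatives of the hydroxylases and oxidases reached an unadjusted p ≤ 0.05 (edgeR quasi-likelihood test), against 6.3% of all tested genes, and their median log2 fold change was 0.01. *P4hb*, the shared beta subunit of prolyl 4-hydroxylase, was the most abundant of these at 1432 RPKM, followed by *Fkbp10*, an isomerase needed for telopeptide lysyl hydroxylation, at 494. Of 7 procollagen proteinases and enhancers 6 were tested, *Tll2* being too low, and 0 were called, with a median of 0.15. *Pcolce* and *Pcolce2*, which enhance procollagen cleavage by BMP1, led this list at 243 and 144 RPKM. The 7 genes of procollagen secretion also gave 0 calls, with 5 of 7 log2 fold changes negative and a median of −0.13. By voomWithQualityWeights with 2 surrogate variables 1 gene was called in the secretion list and 1 among the partners, as was 1 secretion gene with the replicate block and 1 partner without *wt* sample 2. Of all tested genes 1997 of 14533, 1188 of 14533 and 1257 of 14427 were called in these 3 fits. The coat proteins *Sec13* and *Sec23a* were the most abundant of the secretion list, at 275 and 112 RPKM.

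Of 7 genes for matrix proteins that bind or regulate BMP1 or lysyl oxidase, the targeted gene *Postn* was the 1 with an unadjusted p of at most 0.05, and 0 of the other 6 were called, against 6.3% of all tested genes. With *Postn* included the median log2 fold change was −0.12. The count, *Postn* included, was 2 without a filter and without sample 2 of either genotype. Of all tested genes 1797 of 34295 were called without a filter. Without sample 2 of *Postn*-/- and of *wt* they were 1104 of 14277 and 1257 of 14427. Fibromodulin (*Fmod*), which binds collagen and lysyl oxidase, and fibronectin (*Fn1*), which binds periostin and BMP1, had the highest mean levels over the 6 samples, 1438 and 1035 RPKM. *Fn1* was at 11115, 15455 and 10135 normalized CPM in *Postn*-/- samples 1, 2 and 3 and at 9315, 14510 and 12022 in *wt* samples 1, 2 and 3, so samples 2 of both genotypes were again the highest.

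HIF targets were followed because *P4ha1*, *P4ha2*, *Plod2* and *Lox* are among them. Of 19 other HIF target genes 1 had an unadjusted p of at most 0.05, no more than the 6.3% of all tested genes would give. The median log2 fold change was 0.15, with 16 of the 19 positive, or 17 with upper quartile normalization. Without *Postn*-/- sample 2 the number of called genes was 3, and without *wt* sample 2 it was 2. Of all tested genes 1104 of 14277 and 1257 of 14427 were called in these fits. The 1 gene called in the main fit was *Adm*, which encodes the peptide hormone adrenomedullin, at 21.1, 21.5 and 20.4 normalized CPM in *Postn*-/- samples 1, 2 and 3 and at 13.9, 16.3 and 15.9 in *wt* samples 1, 2 and 3. All *Postn*-/- samples were above all *wt* samples, with a log2 fold change of 0.45 and a standard error of 0.12 (Benjamini-Hochberg-adjusted p = 0.717, edgeR quasi-likelihood test). The summed level of the 19 genes was 8664, 6471 and 9239 CPM in *Postn*-/- samples 1, 2 and 3 and 6320, 8976 and 7663 in *wt* samples 1, 2 and 3, led per length by the glycolytic genes *Aldoa* (946 RPKM) and *Ldha* (809 RPKM). *Postn*-/- sample 2 and *wt* sample 1 were the lowest for this sum, as they were for *P4ha1* and *P4ha2*. *wt* sample 1 was also the lowest for *Plod2*, but *Postn*-/- sample 2, at 1003 CPM, was above every *wt* sample for that gene. For *Lox* the order was different, with *Postn*-/- sample 2 the highest of all samples, at 333 CPM. The part of these genes in the levels of the hydroxylases was not tested.

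Marker lists differed among samples too. Of the chondrocyte markers 2 of 10 had an unadjusted p of at most 0.05, *Col2a1* and *Col11a2*, against 6.3% of all tested genes, and the list's median log2 fold change was 0.20. The count was 0 without *wt* sample 3, 1 without *Postn*-/- sample 1 or 3 or *wt* sample 1, and 4 by voomWithQualityWeights with 2 surrogate variables, which called 1997 of the 14533 tested genes in place of 916. Of all tested genes 878 of 14309 were called without *wt* sample 3 and 787 of 14456 without *wt* sample 1. Without *Postn*-/- samples 1 and 3 in turn they were 868 of 14428 and 425 of 14259. The chondrocyte list held 7 positive and 3 negative log2 fold changes. Among the negative ones was *Cnmd*, at −0.29, with each *Postn*-/- sample below each *wt* sample. The median was −0.02 for 6 tested fibroblast and perichondrium markers, 0.12 for 6 osteoblast, 0.45 for 3 endothelial, 0.38 for 6 macrophage and osteoclast and 0.00 for 3 muscle markers. The macrophage and osteoclast list had 0 calls, or 1 with 2 surrogate variables, without a filter (1797 of 34295 of all tested genes), and without *wt* sample 1 or 3. In these lists *Cthrc1* and *Acta1* were lower in *Postn*-/- at an unadjusted p of at most 0.05, with log2 fold changes of −0.78 and −1.30, and were named after their values were seen. *Acta1* was at −0.74 without *wt* sample 2 and at −1.11 without *Postn*-/- sample 1, and lost its call in both. All 8 cell cycle genes had negative log2 fold changes, with a median of −0.63 and 1 of 8 called (6.3% of all tested genes), *Ccnb1*, also named after its value was seen. The count ranged from 0 to 6 over the 14 alternatives and stayed the same in 2 of them, and the 6.3% is the share in the main fit only. *Ccnb1* itself, at a log2 fold change of −0.75, kept its call in 7 of 14 alternatives and ran from −0.50 without *wt* sample 1 to −1.16 without *Postn*-/- sample 2. Their sum was 340, 553 and 254 CPM in *Postn*-/- samples 1, 2 and 3 and 833, 455 and 464 in *wt* samples 1, 2 and 3, with *wt* sample 1, the lowest sample for *Plod2* and for *Col2a1*, at the top. The part of the cell cycle in the levels of *Plod2* was not tested.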

How the data were processed

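RNA of primary chondrocytes was sequenced from 3 *Postn*-/- and 3 *wt* samples, each from separate mice per the study's methods, with a kit that does not mark strand. The authors used STAR 2.0.4b for alignment to release 76 of Ensembl and made the deposited raw counts per gene with featureCounts 1.4.5. The CPM were computed by the authors from the sample's summed counts, and the deposited RPKM are CPM per kilobase of gene length. Both were recomputed from the counts and matched. The labels name mm9, whereas the gene coordinates with the counts match GRCm38, which was used here.

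Counts were tested here with edgeR 4.0.16 (R 4.3.3) by the quasi-likelihood test, with TMM normalization, CPM above 1 in at least 2 samples and 355 rRNA genes left out, which kept 14533 genes. P values were adjusted over these genes by the Benjamini-Hochberg method, and confidence intervals use the t distribution. The log2 levels for correlations used a prior count of 2. Alternatives were the DESeq2 1.42.0 Wald test, voomWithQualityWeights of limma 3.58.1, alone or with 2 surrogate variables from sva 3.50.0, other normalizations and filters, a replicate block and leaving out each sample. The fit was tested on simulated counts. Named are the 10 genes, *Postn*, list genes with an unadjusted p of at most 0.05, the 2 most abundant genes of each pathway list, and the most and least alike pair by Pearson's r. Added after their values were seen were the pair *P4ha1* and *P4ha2*, other genes of the enzyme families (*Loxl3*, *Loxl4*, *P4ha3*, *Tll1*, *Tll2*) and, for marker lists, the most abundant gene, called genes and genes too low to test. The genes and lists were chosen with earlier results of these data known. Lists covered prolyl 3-hydroxylation, partners of the hydroxylases and oxidases, procollagen proteinases and enhancers, procollagen secretion, fibrillar collagens, matrix proteins that bind BMP1 or lysyl oxidase, HIF targets, and markers of cell types and the cell cycle.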

Additional observations from a re-analysis of the deposited data

How the results depend on the processing

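*Plod2* was higher in *Postn*-/- in all 14 alternatives (log2 fold change 0.35 to 0.54), with an unadjusted p of at most 0.05 in 12, and *Postn* was lower in all 14 (−1.07 to −0.70). Of the 10 genes, 1 was called; 2 were called by voomWithQualityWeights with 2 surrogate variables, without a filter and with the replicate block, and 0 (without *wt* sample 1) to 2 when a sample was left out. All tested genes with an unadjusted p of at most 0.05 numbered 916 of 14533. They numbered 1997 of 14533 by voomWithQualityWeights with 2 surrogate variables and 1188 of 14533 with the replicate block. Without a filter, where more genes were tested, they numbered 1797 of 34295. With a sample left out they ran from 425 of 14259 to 1257 of 14427. At an adjusted p of at most 0.05 they numbered 2, against 11 by DESeq2, 1 by voomWithQualityWeights and 4 with 2 surrogate variables, 1 with upper quartile normalization, 9 without a filter, 0 with CPM above 1 in all 6 samples, 1 with the replicate block and 1 to 2 with a sample left out.

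With a sample left out the log2 fold change ran from −0.43 to 0.20 for *Bmp1*, −0.12 to 0.98 for *Lox*, 0.21 to 0.76 for *Loxl1*, −0.44 to 0.20 for *Loxl2*, −0.11 to 0.15 for *Plod1*, 0.02 to 0.24 for *P4ha1*, −0.0619 to 0.23 for *P4ha2* and −0.36 to −0.12 for *Serpinh1*. *Plod1* was also at −0.00736 by DESeq2, −0.00554 by voomWithQualityWeights with 2 surrogate variables, −0.00735 with DESeq2 size factors, −0.0223 without a filter and −0.00705 with the replicate block, and *P4ha2* at −0.00911 with 2 surrogate variables. *Lox* had an unadjusted p of 0.0103 by voomWithQualityWeights with 2 surrogate variables. Pairs with an exact permutation p of at most 0.05 numbered 3. With genotype means subtracted 6 pairs had a permutation p of at most 0.05, which is approximate because samples were permuted across genotypes. Without the samples farthest from the median, where fewer samples were used, the number was 1, and this pair was not among the 3. The cause of the other differences was not tested.

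Deviations from the genotype means had a Pearson's r of 0.0824, 0.155 and 0.143 between samples with the same number. Each sample correlated best with its own number. These r are small, and the matches are not independent, since deviations cancel within each genotype. This is at most a weak hint from the data, not the design, and was not tested. Alternatives for list genes and list counts were chosen after their values were seen. With 3 samples a genotype, small differences in *Lox*, *Bmp1*, *Loxl1* and *Loxl2* are beyond the precision of these data.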
